A study of Mus musculus with 2 samples.

Results

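The cells described here are tumour cells of a mouse pancreatic cancer model that carried transcripts of Krt17, a keratin filament gene, or Gabrp, the pi subunit of the GABA-A receptor. A cell barcode was kept when it held at least 500 genes, at least 1000 unique molecular identifiers (UMIs, one per captured transcript) and at most 20% mitochondrial UMIs. Levels are in CPM, a gene's UMIs per 1e+06 UMIs of the barcode or group. A kept barcode was a member when Krt17 and Gabrp together reached 200 CPM with at least 2 UMIs, Epcam reached 500 CPM, and the trefoil genes Tff1, Tff2 and Gkn3 together stayed under 1000 CPM. The rule found 415 members among the 2550 kept barcodes of the whole tumour library and 194 among the 5092 of the CD9hi library. They made up 20.2% (95% exact binomial interval 18.5 to 22.02) of 2053 Epcam barcodes in the whole tumour and 7.66% (6.66 to 8.77) of 2532 in CD9hi. The members were chosen by the measured values of Krt17, Gabrp, Epcam and the trefoil genes in these same barcodes, so those genes are given as a description only.

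KRT17 is a keratin of basal and stratified epithelia that is also made by stressed or wounded epithelium, and in human pancreatic ductal adenocarcinoma it is one of the genes used to call the basal-like, or squamous, subtype. The GABA-A receptor is a chloride channel of several subunits best known from neurons, and its pi subunit is found mainly in epithelia, pancreatic tumours included. Normal pancreatic ducts carry the simple keratins KRT7, KRT8, KRT18 and KRT19. The classical tumour subtype instead carries genes of gastric and intestinal mucosa, among them the trefoil factors.

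The tumours came from mice labelled KPFRR, whose alleles include Pdx1-Flp, both copies of Trp53 flanked by frt sites (Trp53frt/frt), Rosa26FSF-creER and Rosa26mTmG. Both libraries share the whole genotype, and no treatment is labelled. The Pdx1 promoter drives Flp from pancreatic progenitors onward, so epithelial cells of several kinds can carry the recombined alleles. Dissociated live cells were sorted on GFP or on CD9, a tetraspanin of the cell surface. One library is labelled whole tumour and the other Cd9 Hi Sorted, called CD9hi below. Each is 1 sample, the number and pooling of animals is not given in the sources used here, and there is no replicate. No test between or within the libraries is therefore given, and every interval covers counting error only.

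The whole tumour library held 3082 barcodes and 48287984 UMIs, and CD9hi held 5500 barcodes and 120451299 UMIs. Members had a median of 16947 UMIs in the whole tumour and 19970 in CD9hi, against 18065.5 and 21488.5 in the other Epcam barcodes. The libraries shared 2 barcode sequences, and 0 of these belonged to members. The GFP feature held 0 UMIs in the members of either library, so the transcript gave no check of the GFP sort.

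The members lacked several of the squamous genes that a basal-like name implies, while most genes of the lists had UMIs. Of 16 squamous identity genes 4 had 0 UMIs in each library, and of 21 basal subtype genes 6. The squamous identity genes summed to 1480 CPM in whole-tumour members and 1543 CPM in CD9hi members, of which Sfn gave 754 and 557 CPM. Trp63, the master regulator of basal and squamous epithelium, and Krt5, its main keratin, had 0 UMIs in the members of both libraries, which allows at most 0.408 CPM (whole tumour) and 0.749 CPM (CD9hi) (3 counts of the summed UMIs). The desmosomal gene Dsc3 and the cornified envelope gene Cnfn were also at 0 in both. Another desmosomal gene, Dsg3, had 29 UMIs in 25 members of the whole tumour and 12 UMIs in 11 members of CD9hi. Krt15 and S100a2, further basal genes, had 0 UMIs in both. Krt14 had 107 UMIs in 35 members of the whole tumour (14.6 CPM) and 79 UMIs in 24 members of CD9hi (19.7 CPM), and Krt6a had 20 UMIs in 6 members and 18 UMIs in 8. Desmosomal and junctional genes shared with simple epithelium were present, with Jup at 191 and 253 CPM and Dsg2 at 109 and 97.9 CPM in the whole tumour and CD9hi. The cells are therefore called Krt17/Gabrp cells below.

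Among the members of the whole tumour, the lowest Krt17 plus Gabrp value was 200.03 CPM. The highest value under the limit was 198.04 CPM, among Epcam barcodes low in trefoil with at least 2 UMIs of these genes. In CD9hi the same pair was 200.1 and 196.56 CPM. A further 11 such low-trefoil barcodes of the whole tumour and 5 of CD9hi reached 200 CPM but were left out because they held 1 UMI. Close to the threshold, 107 whole-tumour and 67 CD9hi members lay under 300 CPM, while 168 and 122 Epcam barcodes lay between 100 and 200 CPM, and 10 and 4 members rested on 2 UMIs. The lowest Epcam value inside was 501 CPM (whole tumour) and 600.3 CPM (CD9hi), and the highest outside was 454 and 447 CPM. The highest trefoil value inside was 960 and 993 CPM, and the lowest outside was 1009 CPM in the whole tumour. The Epcam limit left out 10 Krt17 or Gabrp barcodes in each library, and the trefoil limit left out 40 in the whole tumour and 0 in CD9hi. The members are thus a range of barcodes above a limit of 200 CPM.

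Most members carried UMIs of only one of the genes. In the whole tumour 98 members (23.6%) had Krt17 and no Gabrp UMI, 176 (42.4%) had Gabrp and no Krt17 UMI, and 141 (34.0%) had both. In CD9hi the numbers were 72 (37.1%), 96 (49.5%) and 26 (13.4%). These classes are called Krt17-only, Gabrp-only and both, in the sense of UMIs detected. The Krt17-only members held a median of 9 Krt17 UMIs in the whole tumour and 10 in CD9hi, and the Gabrp-only members a median of 6 and 6.5 Gabrp UMIs. Of the members with both, 49 of 141 and 9 of 26 had a single UMI of one of the genes, so the class borders depend on depth. Median depth was 15728.5, 17248.5 and 17658 UMIs for Krt17-only, Gabrp-only and both in the whole tumour, and 18277.5, 20005.5 and 22237.5 UMIs in CD9hi.

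Krt17 had a long upper tail that Gabrp lacked. Over the whole-tumour members Krt17 had a median of 96.3 CPM, an upper quartile of 492 CPM and a highest value of 9074 CPM, and Gabrp had a median of 253 CPM, an upper quartile of 415 CPM and a highest value of 2073 CPM. In CD9hi the medians were 30.7 CPM for Krt17 and 229 CPM for Gabrp, and the highest values 6788 and 1683 CPM. The plot of Krt17 against Gabrp per barcode shows the classes along the axes and in the field between them.

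**Figure D1:**
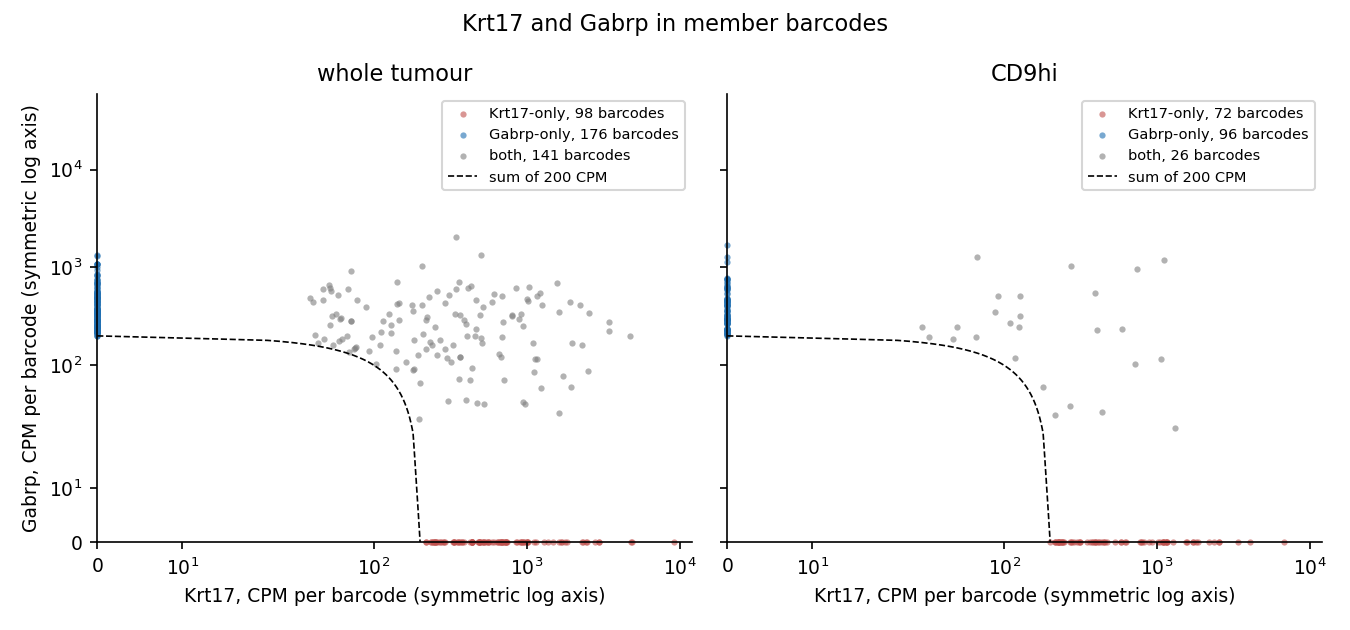
Krt17 (x axis) and Gabrp (y axis) in CPM per member barcode, on symmetric log axes that include 0, in the whole tumour (left, 415 members) and CD9hi (right, 194 members). Each point is 1 barcode coloured by class, and the dashed line marks a sum of 200 CPM. The Krt17-only points lie along the x axis up to 9074 CPM, and the Gabrp-only points along the y axis up to 1329 CPM (whole tumour) and 1683 CPM (CD9hi).

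Of the other subunits of the GABA receptors, few were detected beside Gabrp. Of 20 subunit genes, 12 had 0 UMIs in the whole-tumour members and 13 in the CD9hi members. Gabre, the epsilon subunit, stood at 14.96 against 7.44 CPM in members and other Epcam barcodes of the whole tumour and at 14.98 against 12.2 CPM in CD9hi. The genes of GABA synthesis, breakdown and transport summed to 20.7 and 17.5 CPM in members, against 21.8 and 14.6 CPM in the others.

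Of the genes given as markers of these cells, Krt19 was the one whose higher level was spread over most members of both libraries. Krt19, the defining keratin of ducts, was at 2257 CPM in members and 1390 CPM in the other Epcam barcodes of the whole tumour, a log2 ratio of 0.70 (counting interval 0.67 to 0.72). In CD9hi it was at 1428 and 569 CPM, a log2 ratio of 1.33 (1.29 to 1.37). The medians over barcodes were 1805 against 904 CPM and 1125 against 178 CPM, so more than a few bright barcodes carried the difference.

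Tnc, which encodes the matrix glycoprotein tenascin C, was uneven among the members. It was at 642 CPM in members and 335 CPM in the others of the whole tumour (log2 ratio 0.94) and at 468 and 329 CPM in CD9hi (0.51). Its median over members was 81.4 CPM in the whole tumour and 0 in CD9hi, with highest values of 10424 and 5545 CPM. The medians over the others were 0 and 44.8 CPM, so in CD9hi the median and the sum differ in direction. A Tnc UMI was found in 47.9% of CD9hi members and 55.1% of the others. With the 5 barcodes richest in Tnc left out of each group, the CD9hi levels were 341 and 314 CPM. With trefoil, acinar and islet barcodes left out, the whole-tumour log2 ratio was 0.14, so the difference there lay mainly against those barcodes.

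Lcn2, a secreted siderophore-binding protein of inflamed epithelium, was at 983 CPM in whole-tumour members and 532 CPM in the others. It was detected in 178 of 415 members, and its median over members was 0. Thinned to 5000 UMIs per barcode, 33.9% (29.3 to 38.8) of 401 members had an Lcn2 UMI, against 35.4% (29.2 to 42.1) of 223 acinar barcodes of the same library (acinar transcripts at 100000 CPM or more), and 23.6% (21.5 to 25.8) of 1532 other Epcam barcodes. The median depths were 16947 and 15486 UMIs (unthinned shares 42.9% and 47.2%), and 14 members and 12 acinar barcodes were left out as too shallow. The share in members was thus above that of the other Epcam barcodes and did not exceed that of the acinar barcodes, which held Lcn2 at 433 CPM. The part of free RNA in these shares was not tested. With members chosen by Krt17 alone, the log2 ratio of Lcn2 turned to -0.41 in the whole tumour and -2.64 in CD9hi. In CD9hi Lcn2 was at 64.4 CPM in members and 16.4 CPM in the others, and 1 barcode held 81.4% of the members' UMIs.

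After the same thinning, Tnc was detected in 48.4% of whole-tumour members and 2.24% of acinar barcodes, and Krt19 in 94.0% and 21.97%. Pyy was detected in 5.49% (3.47 to 8.19) of members, 1.79% (0.49 to 4.53) of acinar barcodes and 6.01% of other Epcam barcodes. The shares of Krt17 and Gabrp were set by the rule: Krt17 was detected in 48.6% of thinned members and 0 of 223 acinar barcodes, and Gabrp in 62.1% and 0.448%. CD9hi held 1 acinar barcode, so no such background was available there.

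Pyy, the gene of the gut hormone peptide YY, was detected in few members and was lower in them than in all other Epcam barcodes. It was at 54.0 CPM in members and 365 CPM in the others of the whole tumour, and at 11.0 and 86.0 CPM in CD9hi. It was detected in 36 whole-tumour members and in 3 CD9hi members, and 1 barcode held 75% of the latter's UMIs. Among the others 1 barcode held 19.6% of the Pyy UMIs in the whole tumour and 62.5% in CD9hi. With trefoil, acinar and islet barcodes left out, Pyy was at 54.3 against 85.7 CPM in the whole tumour (-0.66), and in CD9hi the direction turned, to 8.52 against 0.761 CPM (3.49), at a mean under 5 CPM and with a UMI in 1.55% of members.

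The comparison with the other Epcam barcodes depends on what those hold. In the whole tumour the 1638 others included 379 barcodes above the trefoil limit, 336 with acinar transcripts at 5000 CPM or more and 20 with islet hormone transcripts at 1000 CPM or more. Members included 9 such acinar and 0 islet barcodes. In CD9hi the 2338 others included 19, 4 and 2. Each ratio was therefore also taken over the 1017 and 2315 others that are low in all of these, against 406 and 193 members. This restricted comparison was chosen after the data had been seen.

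Of 9925 genes measured in the whole tumour (mean of at least 5 CPM over members and others), 480 (4.84%) were at least 1.5-fold higher in members and 506 (5.1%) at least 1.5-fold lower. The all-gene median log2 ratio was 0.12, and with this shift removed the numbers were 272 higher and 646 lower. In the restricted comparison 253 of 9820 genes (2.58%) were higher and 181 (1.84%) lower. Of 9410 genes in CD9hi, 421 (4.47%) were higher and 176 (1.87%) lower (median 0.03). The restricted comparison there gave 455 of 9387 (4.85%) higher and 167 (1.78%) lower. Higher in both libraries were 80 genes, 16.7% of the whole-tumour list and 19.0% of the CD9hi list, and lower in both were 46, or 9.09% and 26.1%. In the opposite direction in CD9hi were 5 of the higher and 33 of the lower whole-tumour genes.

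Gzme, a granzyme gene, had the highest ratio in whole-tumour members among genes with a mean of at least 50 CPM. It was at 219 CPM in members and 57.3 CPM in the others of the whole tumour (log2 1.93, counting interval 1.84 to 2.03) and at 202 and 87.2 CPM in CD9hi (1.21, 1.10 to 1.32). It was detected in 183 of 415 and 107 of 194 members. In CD9hi it lay with the members that had Gabrp: Krt17-only members held 38.3 CPM, below the others, and Gabrp-only members 314 CPM, and with members chosen by Krt17 alone the ratio turned to -0.25. Granzymes are serine proteases best known from cytotoxic lymphocytes. The 9 lymphocyte markers summed to 96.3 CPM in whole-tumour members and 92.0 CPM in the others, and to 47.2 and 40.8 CPM in CD9hi. Trbc2 gave 95.5 and 46.2 CPM of the members' sums, with UMIs in 232 and 76 members, Ptprc had 1 UMI in each library, and Nkg7, Il7r, Cd3d and Ms4a1 had 0 in both. The part of other cells in the Gzme counts was not tested.

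Gc, the vitamin D binding protein gene, was at 118 against 34.7 CPM in the whole tumour (1.76) and 48.7 against 9.54 CPM in CD9hi (2.35). Vcam1, an adhesion molecule for leukocytes, was at 199 against 76.6 CPM (1.37) and 45.9 against 21.0 CPM (1.13). In CD9hi 36 of 194 members held its UMIs. With the 5 barcodes richest in Vcam1 left out of each group, the CD9hi levels were 23.1 and 17.6 CPM. Mmp7, a matrix protease of glandular epithelium, was at 162 against 75.2 CPM (1.11) and 16.7 against 6.43 CPM (1.39), but in CD9hi 6 members held its UMIs, and with members chosen by Krt17 alone its whole-tumour ratio turned to -0.24. Slco2a1, a prostaglandin transporter, was at 138 against 55.3 CPM (1.32) and 101.6 against 54.3 CPM (0.90). Piezo2, a mechanically gated ion channel, was at 96.3 against 39.9 CPM (1.27) and 62.9 against 36.1 CPM (0.80). In the restricted whole-tumour comparison the log2 ratios were 1.22 for Gzme, 1.57 for Gc, 0.95 for Vcam1, 1.12 for Mmp7, 0.73 for Slco2a1 and 0.53 for Piezo2, the last below 1.5-fold. The other 8 of the 15 highest in the whole tumour, beside Cxcl2 (1.07), were Bhlhe41 (1.44), Tspan6 (1.24), Cdh6 (1.22), Slco3a1 (1.01), Ppic (1.01), Mcpt8 (1.00), Ccbe1 (0.99) and Pamr1 (0.99). Of these, Bhlhe41 (0.84), Cdh6 (0.89) and Pamr1 (0.77) were past 1.5-fold in the restricted comparison.

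In CD9hi, Tnip3, which encodes an inhibitor of NF-kB signalling, had the highest ratio of such genes. It was at 133 CPM in members and 40.4 CPM in the others (log2 1.72), against 76.7 and 53.9 CPM in the whole tumour (0.51). Krt19 (1.33), Cldn2 (1.26), Gzme (1.21), St14 (1.10), Ly6a (1.09), Crb3 (1.07), Spp1 (1.01), Prom1 (0.98) and Fxyd3 (0.91) followed. Cldn2 is a pore-forming claudin, St14 the membrane protease matriptase, Crb3 a polarity protein, and Prom1 a microvillar protein used as a stem cell marker. Spp1, the gene of osteopontin, was at 18307 against 10689 CPM in the whole tumour (0.78) and 12226 against 6055 CPM in CD9hi (1.01), and its restricted ratios were 0.68 and 1.03. With members chosen by Krt17 alone, the CD9hi ratios turned to -0.38 for Tnip3, -0.35 for Cldn2 and -0.52 for Spp1.

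The 15 genes lowest in whole-tumour members were mostly acinar and islet genes: Gcg, Ghrl, Ppy, Pnliprp2, Prss2, Cel, Cpa1, Pnliprp1, Try5, Npy, Ifitm1, Ctrb1, Clps, Reg2 and Reg1, with log2 ratios from -8.11 to -3.50. In the restricted comparison those of Gcg, Ppy, Cel, Cpa1, Pnliprp1, Try5, Ifitm1, Ctrb1, Clps, Reg2 and Reg1 were within 1.5-fold. Prss2 (-0.70) and Pnliprp2 (-1.37, counting interval -3.19 to -0.12) stayed more than 1.5-fold lower. Ghrl turned to 1.01, and Npy, a neuropeptide gene, kept -3.60. That comparison leaves barcodes out by the levels of the acinar genes and of Gcg, Ppy and Ghrl themselves, so their shift was set by the filter. Npy, Ifitm1, Reg1 and Reg2 were not among the genes of that filter. Npy was at 8.70 CPM in members and 122 CPM in the others. In CD9hi the lowest genes besides the acinar Ctrb1 were Uchl1 (172 against 379 CPM, -1.14), Pbp2 (-0.99), the receptor kinase gene Axl (57.7 against 114 CPM, -0.98), Igfbp3 (-0.95), Npy (-0.93), Tnfaip6 (-0.90), Vim (-0.88), Inhba (-0.88) and Plac8 (-0.85).

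**Figure D2:**
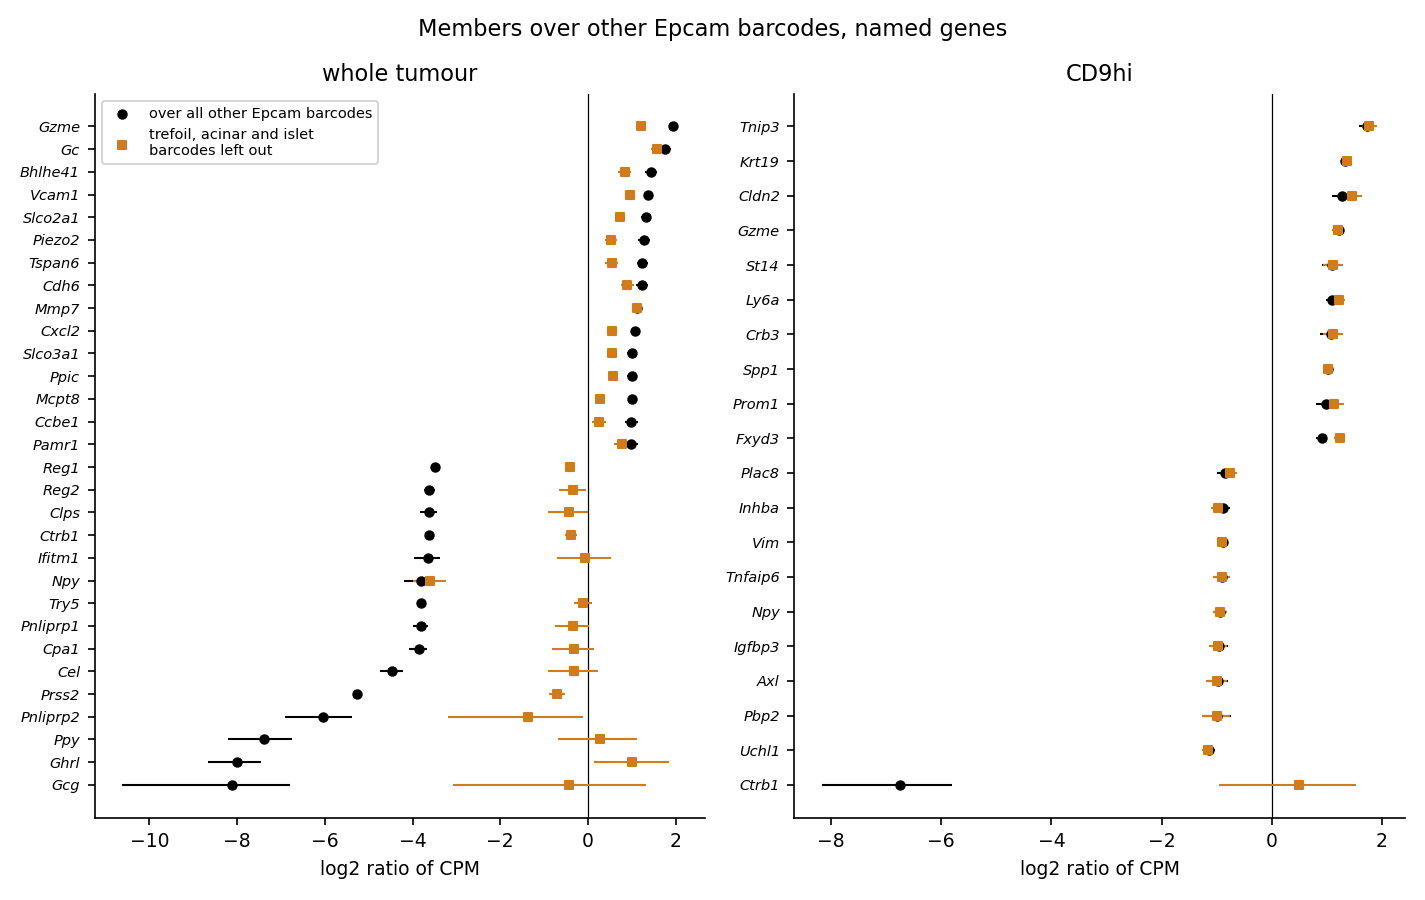
Log2 ratio of CPM, members over other Epcam barcodes, for the named genes of the whole tumour (left, 30 genes) and CD9hi (right, 20 genes). Black points use all other Epcam barcodes, orange squares leave out trefoil, acinar and islet barcodes, and bars are 95% counting intervals. The acinar and islet genes at the lower left move toward 0 in the restricted comparison, which leaves barcodes out by the levels of these same genes. Npy, which was not used in that choice, stays at -3.60.

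Among the simple keratins, Krt7 was higher in members of both libraries, at 2632 against 1710 CPM (0.62) and 2547 against 1733 CPM (0.56), but 0.21 in the restricted whole-tumour comparison. Krt8 was at 3431 against 3293 CPM (0.06) and 3009 against 2427 CPM (0.31), and Krt18 at 4583 against 4474 CPM (0.03) and 4468 against 4245 CPM (0.07). Of 28 measured epithelial identity genes, 1 was higher and 2 lower in whole-tumour members (median 0.06, all genes 0.12, with 4.84% higher and 5.1% lower). Of 25 in CD9hi, 16 were higher and 0 lower (median 0.71, all genes 0.03, with 4.47% higher and 1.87% lower). The CD9hi genes included Grhl2, an epithelial transcription factor (9.24 against 3.23 CPM, 1.53), Crb3 (1.07), St14 (1.10), Cldn7 (0.74), Cldn4 (0.71) and the splicing regulator Esrp1 (0.63).

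Vim, the intermediate filament gene of mesenchymal cells, was lower in members. It was at 649 against 908 CPM in the whole tumour (-0.48, restricted -1.26) and at 2203 against 4063 CPM in CD9hi (-0.88). The medians over barcodes were 62.5 against 0 CPM in the whole tumour and 1352 against 3840 CPM in CD9hi, so in the whole tumour the median and the sum differ in direction. Of 12 measured genes of the mesenchymal list, 4 were higher and 0 lower in whole-tumour members, and in the restricted comparison 0 were higher and 4 lower of 13. In CD9hi 3 were higher and 4 lower of 15. Among transcription factors of epithelial-mesenchymal transition, 0 of 6 and 0 of 8 passed 1.5-fold in the whole tumour and CD9hi. Over all genes the shares higher and lower were 4.84% and 5.1% in the whole tumour and 4.47% and 1.87% in CD9hi. In the restricted whole-tumour comparison they were 2.58% and 1.84%.

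Of the published basal subtype genes in the files, 8 of 21 reached the minimum level in each library. Over all genes the shares higher and lower were 4.84% and 5.1% in the whole tumour, 4.47% and 1.87% in CD9hi, and 2.58% and 1.84% in the restricted whole-tumour comparison. In the whole tumour 1 was higher (Krt7) and 3 lower, and in CD9hi 2 were higher and 0 lower. Ly6d, a basal subtype gene, was at 33.0 against 101 CPM in the whole tumour (-1.61) and at 27.0 against 7.51 CPM in CD9hi (1.85), where 10 members held its UMIs and 1 of them 47.2%. Areg, an EGF receptor ligand, was at 237 against 423 CPM (-0.83) and 597 against 866 CPM (-0.54). The squamous identity list had 2 higher and 1 lower of 10 in the whole tumour and 1 higher and 0 lower of 11 in CD9hi, and in the restricted whole-tumour comparison 0 and 1. The classical subtype list, without the trefoil genes of the rule, had 0 higher and 13 lower of 15 in the whole tumour, and 1 and 3 of 11 in the restricted comparison.

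Of 20 measured cytokine and chemokine genes, 9 were higher and 0 lower in the whole tumour (all genes 4.84% and 5.1%, list median 0.54), and 7 higher and 1 lower in the restricted comparison (all genes 2.58% and 1.84%). In CD9hi 4 were higher and 3 lower of 19 (all genes 4.47% and 1.87%). Csf3, the granulocyte growth factor gene, was at 26.9 against 10.5 CPM (1.36) and 24.0 against 10.8 CPM (1.16). Cxcl5, a neutrophil chemokine, was at 288 against 157 CPM (0.87) and 33.0 against 17.3 CPM (0.94). Both were thus higher in the 2 libraries, while Ccl20 was at 22.8 against 5.85 CPM in the whole tumour (1.97) and 17.5 against 14.7 CPM in CD9hi (0.26). Of NF-kB response genes, 8 were higher and 0 lower of 24 in the whole tumour, and 4 and 2 of 23 in CD9hi, against the same all-gene shares.

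Lgr5, the R-spondin receptor that marks intestinal stem cells, was higher in members of both libraries at low levels. It was at 36.7 against 12.9 CPM in the whole tumour (1.51, counting interval 1.28 to 1.74) and 9.74 against 3.30 CPM in CD9hi (1.57, 1.02 to 2.07). It was detected in 122 of 415 and 25 of 194 members, and the restricted ratios were 1.39 and 1.58. Of 13 measured Wnt and Lgr genes, 7 were higher and 0 lower in the whole tumour (all genes 4.84% and 5.1%) and 2 and 0 in CD9hi (4.47% and 1.87%). The Wnt ligand genes Wnt11 (1.27), Wnt5a (0.98) and Wnt4 (0.90) were among the 7, and in CD9hi they stood at 0.18, 0.51 and 0.35.

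Of 16 matrix glycoprotein and laminin genes, 6 were higher and 0 lower in the whole tumour (all genes 4.84% and 5.1%), but 1 and 1 in the restricted comparison (2.58% and 1.84%), and 2 and 0 in CD9hi (4.47% and 1.87%). The same all-gene shares apply to the next lists. Fn1, the fibronectin gene, was at 3187 against 1709 CPM (0.90, restricted 0.19) and 3352 against 2837 CPM (0.24). Duct identity genes were 4 higher and 3 lower of 15 in the whole tumour, 5 and 0 in the restricted comparison, and 6 and 0 of 13 in CD9hi. Proliferation genes were 0 higher and 8 lower of 18 in the whole tumour, but 1 and 1 of 14 in the restricted comparison, and 2 and 0 of 12 in CD9hi. Of the 22 genes of the immediate early and heat shock list, which respond to tissue dissociation, 0 passed 1.5-fold in either library. Outside that list, the immediate early gene Nr4a1 was at 51.3 against 83.0 CPM in the whole tumour (-0.69) and 65.9 against 63.4 CPM in CD9hi (0.06), and the small heat shock gene Hspb1 at 229 against 203 CPM (0.17) and 148 against 253 CPM (-0.77).

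Markers of other cell types were low in the members. Summed fibroblast markers were at 4.22 and 8.74 CPM in whole-tumour and CD9hi members, with Pdgfrb at 0. Endothelial markers were at 22.7 and 64.7 CPM with Cdh5 at 0, and tuft cell markers at 41.3 and 24.2 CPM with Pou2f3 and Trpm5 at 0. Macrophage markers were at 213 CPM in whole-tumour members and 130 CPM in the others, of which Cd14 gave 200 and 117 CPM, with Csf1r in 6 members and Adgre1 at 0. In CD9hi they were at 68.4 and 58.6 CPM. Acinar markers summed to 1067 against 16782 CPM in the whole tumour, with a median of 181 CPM over members, and to 26.5 against 408 CPM in CD9hi. Their part in the differences above was not tested beyond the restricted comparison.

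Krt17-only and Gabrp-only members differed in more genes than members and other Epcam barcodes did. Of 9764 genes measured in the whole tumour, 1069 (10.9%) were at least 1.5-fold higher in Krt17-only than in Gabrp-only members and 1306 (13.4%) at least 1.5-fold lower. Of 9373 in CD9hi, 1014 (10.8%) were higher and 1107 (11.8%) lower. The sums here are smaller than those over all members, so counting error alone moves more low genes past 1.5-fold: among genes with a mean of at least 50 CPM the numbers were 277 and 153 in the whole tumour and 160 and 151 in CD9hi, against 90 and 86, and 34 and 27, between members and others. The contrast was added after the data had been seen. Higher in both libraries were 296 genes, 27.7% of the whole-tumour list and 29.2% of the CD9hi list. Lower in both were 366, or 28.0% and 33.1%, and 52 and 73 whole-tumour genes were past 1.5-fold in the opposite direction in CD9hi. Of 2608 genes at 50 CPM or more in both libraries, 99 were past 1.5-fold in the same direction in both, 62 on the Krt17 side and 37 on the Gabrp side. Of the 15 of each side with the largest smaller ratio, a rule set after their values were seen, each kept its direction in both libraries with the 5 barcodes richest in that gene left out of each class, a check that was also added after the data had been seen.

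Lama3 and Lamb3, chains of laminin, a basement membrane protein that anchors epithelium through integrins, were higher in Krt17-only members. Lama3 was at 199.98 CPM in Krt17-only, 92.7 CPM in both and 70.5 CPM in Gabrp-only members of the whole tumour, a log2 ratio of Krt17-only over Gabrp-only of 1.503. In CD9hi it was at 348, 123 and 83.8 CPM, a ratio of 2.05. Lamb3 was at 158, 72.0 and 61.9 CPM (1.35) and at 356, 92.3 and 102.4 CPM (1.79). Itgb4, the integrin beta4 chain and part of a laminin receptor, was at 160 against 89.4 CPM (0.84) and 244 against 129 CPM (0.92).

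Among the Krt17-side genes chosen above for the largest smaller ratio, Tnc had the largest ratio in CD9hi. It was at 1124 CPM in Krt17-only, 788 CPM in both and 276 CPM in Gabrp-only members of the whole tumour (2.03, counting interval 1.91 to 2.15), and at 873, 572 and 137 CPM in CD9hi (2.67, 2.48 to 2.87). Its median was 351 against 0 CPM in the whole tumour. In CD9hi the median was 0 in both classes and the upper quartile 1867 against 100 CPM, with a UMI in 35 of 72 and 41 of 96 barcodes. The level in Gabrp-only members was below that of the other Epcam barcodes in each library (335 and 329 CPM), so the Tnc above that level lay in the members with Krt17.

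Genes of secreted or membrane-bound ligands were also among those 15. Jag1, a Notch ligand, was at 218 against 37.0 CPM in the whole tumour (2.55) and 203 against 71.4 CPM in CD9hi (1.503). Inhba, the activin A subunit gene, was at 323 against 40.5 CPM (2.99) and 213 against 101 CPM (1.08). Members with both genes lay at or below the Gabrp-only level for Jag1 and Inhba in CD9hi (69.6 CPM for each), and between the classes in the whole tumour. In CD9hi the other Epcam barcodes stood at 182 CPM for Jag1 and 249 CPM for Inhba, so the Krt17-only level was near theirs and the Gabrp-only level below it.

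Some genes outside those 15, chosen after their values were seen, were also higher in both libraries. Il23a, the p19 subunit of interleukin 23, was at 72.2 against 23.9 CPM (1.59) and 58.8 against 11.9 CPM (2.28). Wnt11 was at 44.1 against 11.8 CPM (1.89) and 26.9 against 9.83 CPM (1.44), and Lgr6, an R-spondin receptor of skin, at 45.4 against 15.96 CPM (1.503) and 62.4 against 32.6 CPM (0.93). Nrarp, a feedback gene that Notch signalling switches on in the receiving cell, went the other way from its pathway's ligand Jag1, at 8.94 against 30.0 CPM (-1.70) and 15.6 against 45.0 CPM (-1.50). Of 14 and 13 measured Notch genes, 2 and 1 were higher and 2 and 3 lower. Over all genes 10.9% were higher and 13.4% lower in the whole tumour, and 10.8% and 11.8% in CD9hi.

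The other genes named on the Krt17 side were Slc4a11 (1.89 in the whole tumour and 1.81 in CD9hi), Piezo2 (1.44 and 1.85), Jam2, a junctional adhesion molecule (2.32 and 1.38), Fam214a (1.74 and 1.32), Crip1 (1.14 and 1.49), the small heat shock protein gene Hspb1 (1.21 and 1.07) and Fermt2, an activator of integrins (1.67 and 1.03). In CD9hi Hspb1 was at 200 CPM in Krt17-only members and 253 CPM in the other Epcam barcodes, and Fermt2 at 103 and 99.0 CPM. Slc4a11, Piezo2, Jam2, Fam214a and Crip1 stood higher in Krt17-only members than in the other Epcam barcodes there. Piezo2 stood at 149.5 CPM in Krt17-only and 55.2 CPM in Gabrp-only members of the whole tumour. Krt20, an intestinal and superficial-cell keratin, was also higher, at 33.9 against 19.1 CPM (0.82) and 159 against 49.1 CPM (1.69).

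**Figure D3:**
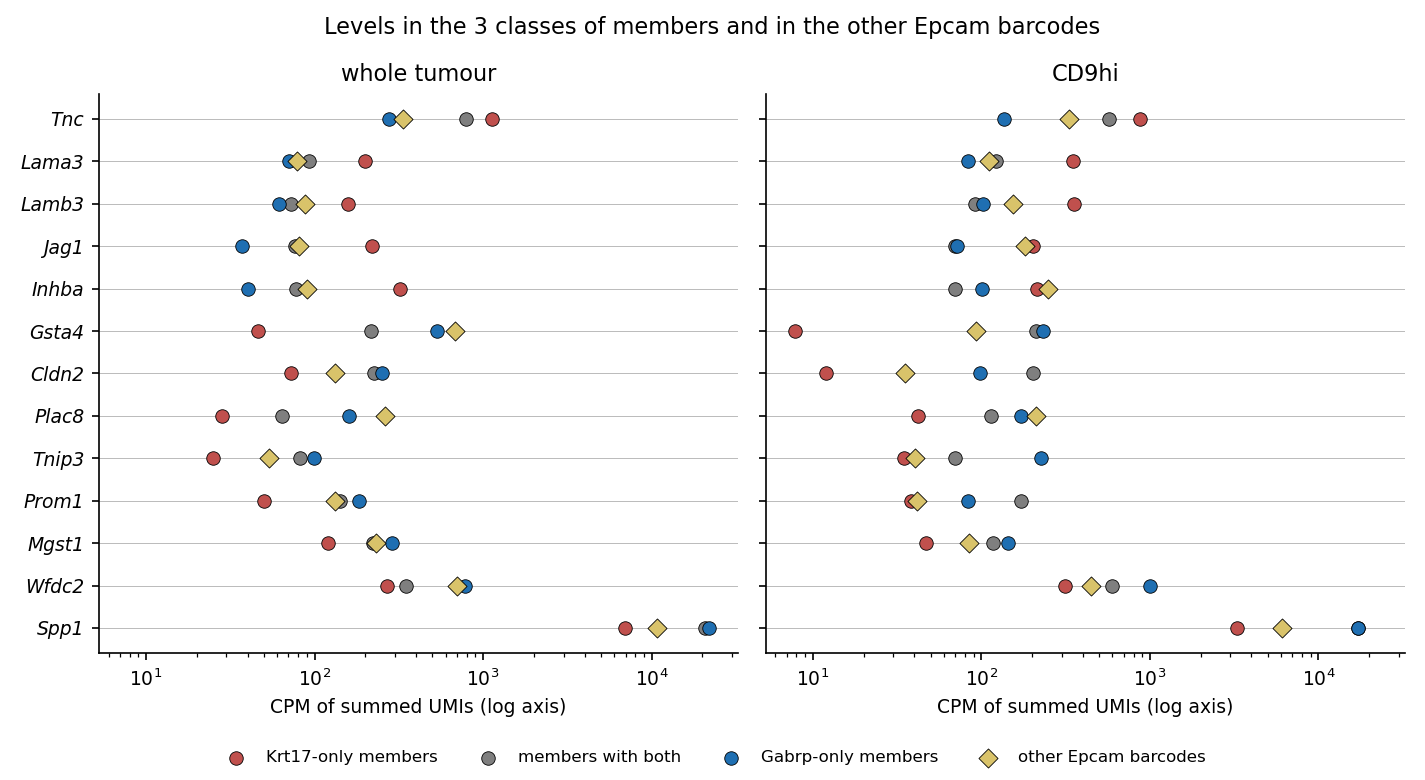
CPM of summed UMIs on a log x axis for 13 genes in Krt17-only (red), both (grey) and Gabrp-only (blue) members and in the other Epcam barcodes (yellow diamonds), whole tumour left and CD9hi right. Each point is 1 sum over barcodes of 1 library, with no replicate. For the upper 5 genes the red point is to the right of the blue one, as for Tnc at 1124 against 276 CPM, and for the lower 8 to the left, as for Spp1 at 6968 against 21876 CPM.

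Gsta4 encodes a glutathione transferase that detoxifies lipid peroxidation products. Among the Gabrp-side genes chosen above for the largest smaller ratio, Gsta4 had the largest ratio in both libraries. It was at 46.0 CPM in Krt17-only, 217 CPM in both and 533 CPM in Gabrp-only members of the whole tumour (-3.52, counting interval -3.90 to -3.19). In CD9hi it was at 7.79, 210 and 234 CPM (-4.84, -5.92 to -4.05), with 11 UMIs in the Krt17-only class. It was detected in 139 of 176 Gabrp-only and 25 of 98 Krt17-only members of the whole tumour, and in 74 of 96 and 8 of 72 in CD9hi. The other Epcam barcodes stood at 684 CPM in the whole tumour, above the Gabrp-only level, and at 93.5 CPM in CD9hi, below it.

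Spp1 showed how the members with both genes could side with the Gabrp-only class. It was at 6968 CPM in Krt17-only, 20779 CPM in both and 21876 CPM in Gabrp-only members of the whole tumour (-1.65), and at 3309.9, 17094 and 17069 CPM in CD9hi (-2.37). Its medians were 4254, 18296 and 18341 CPM, and 754, 13159 and 12952 CPM. Cldn2 was at 72.2, 224 and 252 CPM (-1.80) and at 12.05, 201 and 97.7 CPM (-2.98), although in CD9hi 1 barcode held 30.1% of its UMIs in the class with both. Prom1 was at 49.8, 142 and 183 CPM (-1.87) and 38.3, 171 and 83.3 CPM (-1.11).

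Further genes of the Gabrp side were Plac8 (28.1 against 159 CPM, -2.49, and 41.8 against 173 CPM, -2.04), Tnip3 (-1.97 and -2.70), the secreted protease inhibitor-like gene Wfdc2 (269 against 779 CPM, -1.53, and 315 against 1007 CPM, -1.67) and the orphan nuclear receptor gene Nr4a1 (-1.78 and -1.68). Hs3st1 (-1.64 and -1.38), Bcam, a laminin receptor (-1.27 and -1.42), the microsomal glutathione transferase gene Mgst1 (-1.25 and -1.62), Tmem176a (-1.44 and -1.24), the transferrin gene Trf (-1.23 and -1.61), the cyclin gene Ccnd2 (-1.37 and -1.21) and Golm1 (-1.07 and -1.27) completed the 15. Beside Gsta4, the whole-tumour levels of Plac8, Trf, Golm1 and Nr4a1 were higher in the other Epcam barcodes (262, 184, 106 and 83.0 CPM) than in Gabrp-only members. In CD9hi this held for Plac8 (211 CPM). The rest of the 15 stood lower in the other Epcam barcodes than in Gabrp-only members. The plot of the ratio in one library against the ratio in the other shows the genes named from the 2 sides at its opposite corners.

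**Figure D4:**
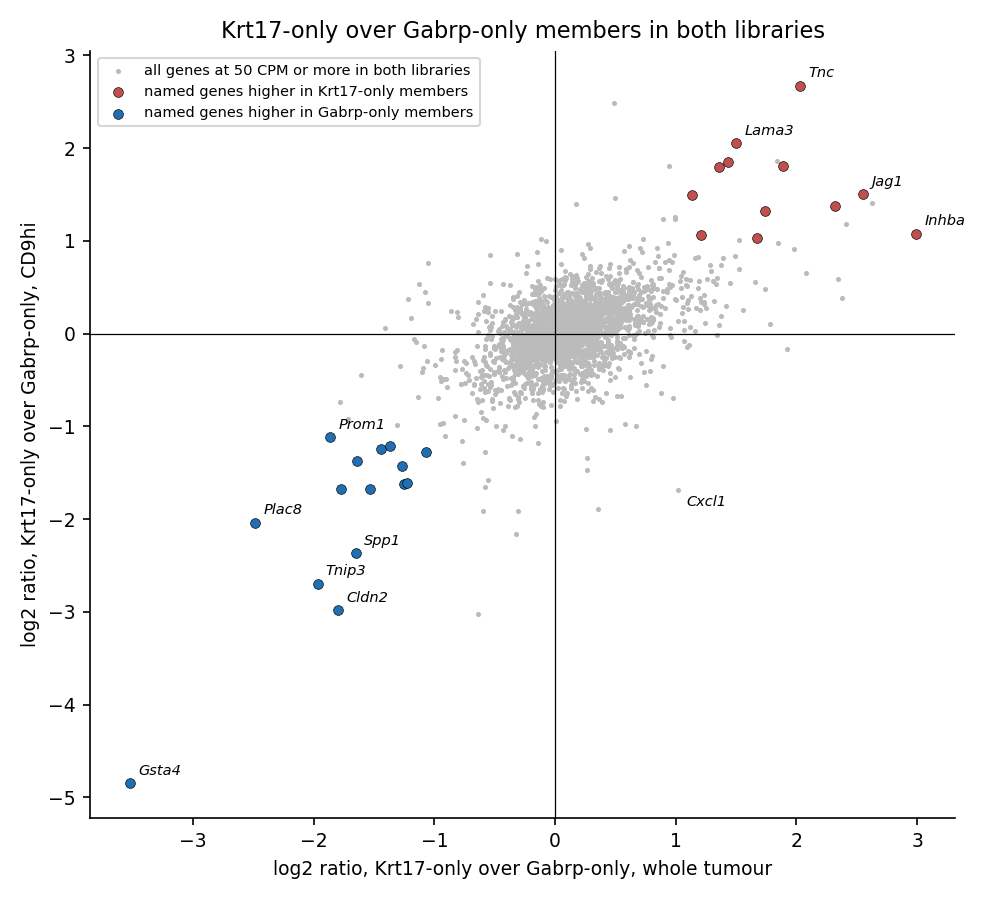
Log2 ratio of Krt17-only over Gabrp-only members in the whole tumour (x axis) and in CD9hi (y axis) for the 2608 genes at 50 CPM or more in both libraries. Each point is 1 gene, and the named genes of the Krt17 and Gabrp sides are in red and blue. Gsta4 lies at -3.52 and -4.84 and Tnc at 2.03 and 2.67, while Cxcl1 has opposite signs, 1.02 and -1.68.

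By list, more matrix genes were higher on the Krt17 side and more duct and secretory genes on the Gabrp side than the all-gene shares of 10.9% and 13.4% in the whole tumour and 10.8% and 11.8% in CD9hi. The same all-gene shares apply to the lists of the paragraphs that follow. Of measured matrix glycoprotein and laminin genes, 9 were higher and 1 lower of 15 in the whole tumour and 8 and 2 of 16 in CD9hi, Spp1 being lower in both. The mesenchymal list had 7 higher and 0 lower of 11, and 7 and 0 of 12 (medians 0.83 and 0.97, all genes 0.01 and 0.02). Medians over barcodes of the summed list were 5435 against 2019 CPM in the whole tumour and 5055 against 4764 CPM in CD9hi. Those of the epithelial identity list, without genes of the rule, were 15325 against 11963 CPM and 11273 against 10512 CPM. Fn1 was at 4721 against 2076 CPM (1.19) and 4391 against 2471 CPM (0.83), and Col6a1, a collagen VI chain, at 49.8 against 30.0 CPM (0.73) and 85.7 against 22.2 CPM (1.94). Vim was at 1286 against 339 CPM in the whole tumour (1.92) but 2108 against 2372 CPM in CD9hi (-0.17). Of transcription factors of epithelial-mesenchymal transition, 4 were higher and 0 lower of 7 in the whole tumour, and 1 and 0 of 8 in CD9hi. Of integrins 7 were higher and 1 lower of 10 in the whole tumour, and 3 and 2 of 10 in CD9hi.

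Inflamed-duct secretory genes were lower in Krt17-only members without exception among those measured, 13 of 13 in the whole tumour and 4 of 4 in CD9hi. Dmbt1, a scavenger receptor of mucosal defence, was at 15.97 against 417 CPM (-4.68) and 3.54 against 21.2 CPM (-2.46). Reg3b, an antimicrobial lectin gene, was at 178 against 969 CPM in the whole tumour (-2.44). Lcn2 was at 378 against 1577 CPM (-2.06), and its 5 richest barcodes held 75.3% and 50.2% of the UMIs of these classes. Cxcl5 was at 30.7 against 482 CPM in the whole tumour (-3.96), and in CD9hi 0 against 84 UMIs. Lcn2 was also in 35.4% of thinned acinar barcodes, against 16.3% of Krt17-only and 43.6% of Gabrp-only members, and the part of free RNA in these counts was not tested.

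Duct identity genes had 1 higher and 8 lower of 15 in the whole tumour and 0 and 6 of 13 in CD9hi, while the duct keratins Krt19 (-0.19 and -0.18) and Krt7 (0.36 and 0.00) were within 1.5-fold. Car2, a duct carbonic anhydrase, was at 17.9 against 300.3 CPM (-4.04) and 9.92 against 23.8 CPM (-1.23), Muc1 at 53.0 against 183 CPM (-1.78) and 50.3 against 84.3 CPM (-0.74), and Slc4a4, a bicarbonate transporter, at 59.4 against 117 CPM (-0.97) and 43.9 against 71.4 CPM (-0.69). The classical subtype list had 1 higher and 6 lower of 11, and 1 and 6 of 9, the higher one being Krt20 in both. Proliferation genes had 0 higher and 7 lower of 15, and 0 and 8 of 13. Mcm2, a replication licensing gene, was at 4.47 against 11.5 CPM (-1.28) and 1.42 against 13.96 CPM (-3.00).

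Cytokine and NF-kB genes did not lean the same way in the 2 libraries. Cytokines and chemokines had 8 higher and 5 lower of 20 in the whole tumour but 1 and 12 of 18 in CD9hi, and NF-kB genes 7 and 7 of 24 but 0 and 13 of 23. Csf2, the gene of granulocyte-macrophage growth factor, was at 884 against 169.8 CPM in the whole tumour (2.38) and 766 against 587 CPM in CD9hi (0.38). Hypoxia response genes had 7 higher and 1 lower of 13, but 2 and 5 of 15, with Vegfa higher in both at 339.9 against 66.7 CPM (2.35) and 322 against 213 CPM (0.59).

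**Figure D5:**
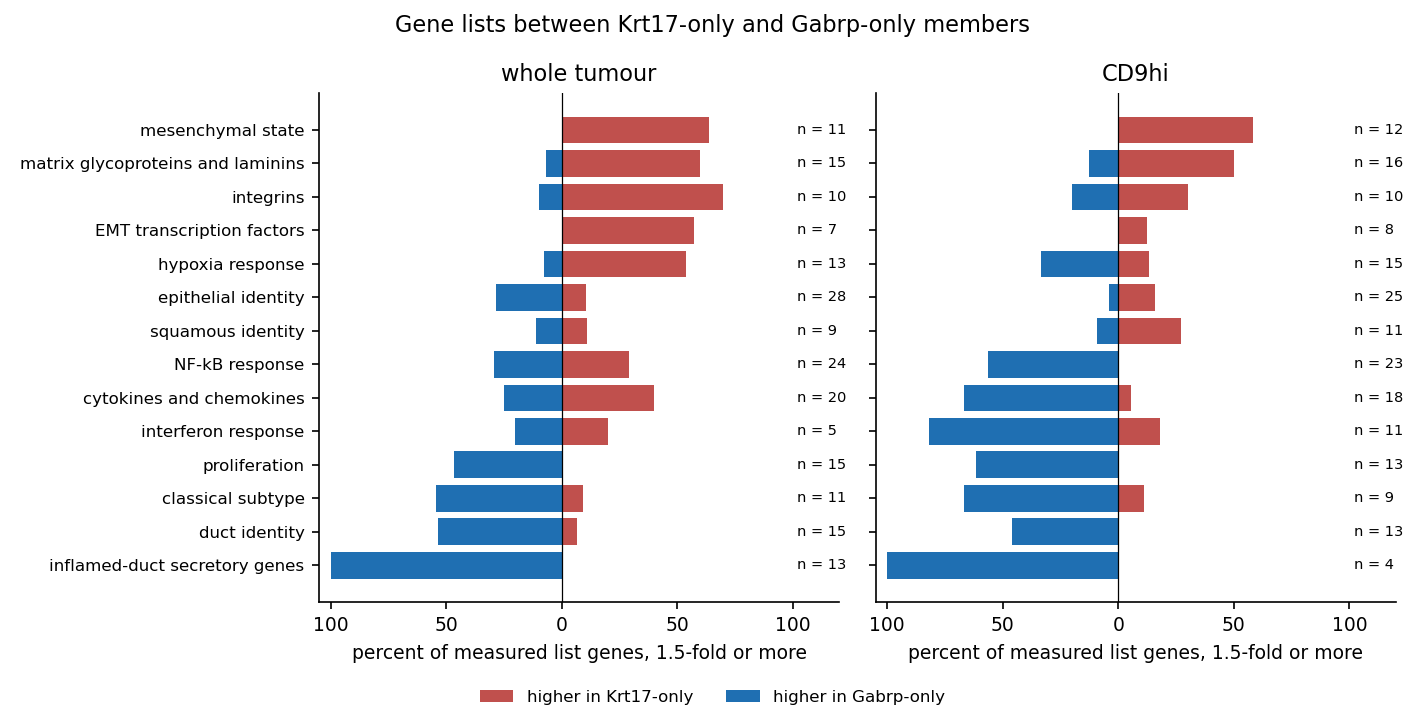
Percent of the measured genes of 14 lists that were at least 1.5-fold higher in Krt17-only members (red, to the right) or in Gabrp-only members (blue, to the left), whole tumour left and CD9hi right; n is the number measured. The background over all genes is 10.9% and 13.4% in the whole tumour and 10.8% and 11.8% in CD9hi. Mesenchymal and matrix lists extend to the right and inflamed-duct, duct identity and proliferation lists to the left in both, while the cytokine and NF-kB lists do not keep 1 direction.

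The squamous identity list had 1 higher and 1 lower of 9 in the whole tumour (all genes 10.9% and 13.4%) and 3 and 1 of 11 in CD9hi (10.8% and 11.8%). Krt14 was at 10.9 against 8.94 CPM (0.30) and 3.54 against 34.6 CPM (-3.16), so its CD9hi counts lay with the Gabrp-only class. Sfn was at 917 against 723 CPM (0.34) and 714 against 452 CPM (0.66). Ly6d was at 3.83 against 63.8 CPM (-3.95) and 2.83 against 50.7 CPM (-4.00), on the Gabrp side in both. Of markers of other cells, acinar transcripts summed to 968 against 397 CPM in the whole tumour with medians of 193 and 177 CPM, and macrophage markers to 119 against 281 CPM (52.4 against 74.5 CPM in CD9hi), with Cd14 at 112 against 257 CPM.

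Genes also moved along the summed level of Krt17 and Gabrp, inside and outside the threshold. Epcam barcodes under the trefoil limit were split into those with no Krt17 or Gabrp UMI, those under 100, under 200, under 500 and under 1000 CPM, and those at 1000 CPM or more. They numbered 884, 196, 168, 230, 115 and 70 in the whole tumour. In that order Krt19 was at 1075, 1519, 1840, 2097, 2522 and 2382 CPM, so the barcodes just under the threshold already stood above those without either gene. Krt19 in CD9hi was at 463, 876, 1179, 1239, 1794 and 1905 CPM. Spp1 was at 8448, 15101, 16326, 18394, 17616 and 19276 CPM in the whole tumour. In CD9hi Spp1 was at 5301, 8293, 11240, 13236, 12056 and 7821 CPM, so it fell in the highest group. That group held mostly Krt17, at 1589 against 307 CPM of Gabrp in the whole tumour and 1530 against 209 CPM in CD9hi. Acinar barcodes were not left out of these groups. Tnc in the whole tumour was at 471, 402, 375, 485, 818 and 924 CPM, lower in the weakly positive barcodes than in the negative ones and higher above 500 CPM. Vim in CD9hi was at 4375, 3165, 2584, 2262, 1979.7 and 2168 CPM. Lcn2 in the whole tumour was highest between 100 and 500 CPM (1325 and 1337 CPM) and at 546 and 421 CPM above. The 33 CD9hi barcodes at 1000 CPM or more and the 70 of the whole tumour are the smallest groups in this order.

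Cd9, the protein used for the sort, did not mark the members but differed between their classes. It was at 1206 against 1209 CPM in members and others of the whole tumour (0.00, restricted -0.52) and at 2072 against 2377 CPM in CD9hi (-0.20). In Krt17-only against Gabrp-only members it was at 1654 against 1031 CPM (0.68) and 2734 against 1698 CPM (0.69). Across the libraries, set side by side without a test, Krt17-only members were 23.6% of members in the whole tumour and 37.1% in CD9hi, and members with both were 34.0% and 13.4%. Members of CD9hi had Vim at 2203 CPM and those of the whole tumour at 649 CPM, and Lcn2 at 64.4 and 983 CPM. The sort, the library and the tumour cannot be told apart in these differences.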

How the data were processed

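The 2 libraries of mouse pancreatic tumour cells were made with 10x Genomics 3′ chemistry v3.1. The deposited files hold the authors' UMI counts per gene and barcode, not normalized, for 55361 features. The submitters' processing notes name Cell Ranger 7.0.0 and GRCm39, while the matrix headers give 6.1.2. Barcodes were filtered and chosen as described in the report. UMIs were summed per group and divided by the group's total (CPM). Log2 ratios had 0.5 counts added to each sum, with exact conditional binomial intervals (95%). A gene was called higher or lower at 1.5-fold when its mean was at least 5 CPM, and the genes of the rule were left out of counts. With 1 library per group there is no test. Shares of barcodes were taken after thinning to 5000 UMIs. Doublets were kept, and removing the highest Scrublet scores was an alternative (52 and 207 barcodes). The members and the 42 gene lists were chosen with earlier results of these data known, and 6 list symbols were not matched to a single feature. Genes were named when among the 15 highest or lowest ratios of the whole tumour or the 10 of CD9hi at a mean of at least 50 CPM (predicted and mitochondrial genes left out), as a given marker, or as up to 4 highest and lowest genes and defining genes of a list. Other genes named were chosen after their values were seen. Some genes that this rule names and part of the genotype are not reported here. The code was tested on simulated data. Python 3.11.15, numpy 2.4.6, scipy 1.17.1, pandas 2.3.3, scanpy 1.11.5 and matplotlib 3.10.9 were used. Intervals assume independent molecules and cover counting error only.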

Additional observations from a re-analysis of the deposited data

Results flagged for a closer look

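Each of 4 genes had ratios past 1.5-fold in opposite directions in the 2 libraries; these differences were not tested. Cxcl2, a neutrophil chemokine, had a log2 ratio of members over other Epcam barcodes of 1.07 in the whole tumour (249 against 118 CPM) and -0.69 in CD9hi (106 against 170.4 CPM). Fxyd3, a regulator of the sodium pump, had -0.76 in the whole tumour (345 against 583 CPM) and 0.91 in CD9hi (241 against 129 CPM). Muc1, a transmembrane mucin, had -0.74 (126 against 210.3 CPM) and 0.65 (71.9 against 46.0 CPM). In the restricted comparison of the whole tumour Cxcl2 was at 0.56, Fxyd3 at 0.16 and Muc1 at 0.17. Cxcl1, another neutrophil chemokine, had a log2 ratio of Krt17-only over Gabrp-only members of 1.02 in the whole tumour (355 against 175 CPM) and -1.68 in CD9hi (66.6 against 215 CPM). With the 5 barcodes richest in Cxcl1 left out of each class these were 0.23 and -2.61.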

How the results depend on the processing

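No paired analysis was possible because each group is 1 library and no replicate is shared. The member share of the whole tumour, 20.2% of Epcam barcodes, was 27.2% with a limit of 100 CPM, 9.01% with 500 CPM, 8.96% with Krt17 alone, 12.3% with Gabrp alone, 22.6% with Epcam at 1000 CPM, 24.8% with low-trefoil others, 23.8% without acinar barcodes and 28.5% in the restricted comparison. The CD9hi share, 7.66%, was 12.2%, 2.69%, 3.32%, 4.38% and 10.3% for the first 5. The 480 higher genes of the whole tumour were 764 at 500 CPM, 869 with Krt17 alone, 272 without acinar barcodes, 253 restricted, 272 scaled to a median of 0, 90 at a mean of 50 CPM and 4507 without a minimum. The 506 lower were 333 with low-trefoil others, 181 restricted, 86 at 50 CPM and 3935 without a minimum. In CD9hi the 421 higher were 999 at 500 CPM, 721 with Krt17 alone, 693 with Gabrp alone, 34 at 50 CPM and 9493 without a minimum, and the 176 lower were 498, 487, 334, 27 and 1984. Between the classes, the 1069 higher and 1306 lower genes of the whole tumour were 277 and 153 at a mean of 50 CPM, the 1014 and 1107 of CD9hi were 160 and 151, and the 1107 were 2211 with a member limit of 500 CPM. Lcn2 reversed to -0.33 (500 CPM) and -0.41 (Krt17 alone) in the whole tumour, and in CD9hi to -0.41 (at least 1000 genes, 2000 UMIs and at most 10% mitochondrial), -1.56 (500 CPM) and -2.64 (Krt17 alone). With Krt17 alone, Mmp7 in the whole tumour reversed to -0.24, and in CD9hi Cldn2 to -0.35, Gzme to -0.25, Spp1 to -0.52, Tnfaip6 to 0.070 and Tnip3 to -0.38. In the restricted comparison Ghrl became 1.01 and Ppy 0.26 in the whole tumour, and Pyy 3.49 and Ctrb1 0.49 in CD9hi, where Ctrb1 was 0.48 without acinar barcodes. Ghrl, Ppy and Ctrb1 were themselves among the genes by which barcodes were left out there. The cause of these changes was not tested. Of the named genes' other alternatives, 442 of 728 in the whole tumour and 420 of 546 in CD9hi moved by less than the counting interval. Genes of a few UMIs, such as Grhl2 or Lgr5 in CD9hi, have wide intervals, and a class of 26 barcodes rests on few cells.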

Other observations

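Of the pancreatic lineage transcription factors, 1 was higher and 6 lower of 13 in Krt17-only over Gabrp-only members of the whole tumour (all genes 10.9% and 13.4%), and 1 and 2 of 12 in CD9hi (10.8% and 11.8%). Onecut2, a factor of duct and endocrine precursors, was at 322 CPM in Krt17-only and 783 CPM in Gabrp-only members of the whole tumour (log2 ratio -1.28) and 319 and 406 CPM in CD9hi (-0.35). Hnf4a, a factor of gut and liver epithelium, was at 2.56 against 18.2 CPM (-2.67) and 5.67 against 15.5 CPM (-1.39), detected in 4 and 44 and in 5 and 23 barcodes. Nkx6-1, a beta cell and progenitor factor, was at 5.11 against 1.91 CPM and 34.0 against 4.65 CPM (1.39 and 2.81), in 4, 5, 14 and 6 barcodes. Sox9, the duct and progenitor factor, was at 284 against 243.5 CPM (0.22) and 472 against 427 CPM (0.14).

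Interferon response genes had 2 higher and 9 lower of 11 in Krt17-only members of CD9hi (background 10.8% and 11.8%) and 1 and 1 of 5 in the whole tumour (10.9% and 13.4%). Bst2, an antiviral membrane protein, was at 17.7 against 98.3 CPM in CD9hi (-2.45), held by 15 and 51 barcodes, and at 52.4 against 40.2 CPM in the whole tumour. The counts of Ifit1 and Rsad2 in CD9hi were held by 3 and 2 Gabrp-only barcodes. The ectonucleotidase gene Nt5e (CD73) was at 323 against 112 CPM (1.52) and 472 against 235 CPM (1.01). Of surface genes used to enrich tumour-initiating cells, Cd44 was at 796 against 573.5 CPM (0.47) and 971.5 against 817 CPM (0.25), and Cd24a at 323 against 433 CPM (-0.42) and 265 against 349 CPM (-0.40).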
